A study of Arabidopsis thaliana with 96 samples.

Results

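AGAMOUS (AG, AT4G18960) was the 1 gene of Arabidopsis thaliana over which small RNA reads were counted, in 2 regions: its enhancer, AGe, and its promoter, AGp. Both regions were followed here through all 96 libraries of the series, which came from young flowers in 33 groups. The question was how the reads were shared between promoter and enhancer in plants that carried different transgene cassettes, in different hosts and in flowers of different classes. A library was made from flowers pooled over several lines that showed one phenotype. The libraries formed set A (28 libraries, NEXTflex kit) and sets B (32) and C (36), both made with the TruSeq kit, and each comparison stayed within its set.

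AG encodes a MADS-domain transcription factor that specifies stamens and carpels and ends the growth of the floral meristem. Much of its control lies in its large second intron, where the factors LEAFY (LFY) and WUSCHEL (WUS) bind. In RNA-directed DNA methylation, small interfering RNAs made from double-stranded RNA guide methylation to DNA of the same sequence, and such RNAs against a promoter or an enhancer can lower the activity of the gene. The series title names an element that counters this pathway.

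In set A the lines were Col_AGp (class Sterile, 1 library), Col_AGP//AGe (classes sMf and rMf), Col_Ctr//AGe (class Wt), and M318_AGe and M317_AGe (sMf and rMf each), with M318 and M317 of class Wt as hosts. Col is the Columbia accession. In set B the lines were met1-1_ARE//AGe and ddm1-1_ARE//AGe (sMf and rMf each), met1-1_Ctr//AGe and ddm1-1_Ctr//AGe (rMf), and kan1-11_ARE//AGe (2 libraries) and Col_ARE//AGe (both Wt), with met1-1, ddm1-1 and Col of class Wt as hosts. In set C the lines were suvh1-2_ARE//AGe (sMf), hdp1-1_ARE//AGe and hdp2-1_ARE//AGe (sMf and rMf each), and kan1-11_Ctr//AGe and Col_Ctr//AGe (rMf), with suvh1-2, hdp1-1, hdp2-1, kan1-11 and Col of class Wt as hosts. All 31 other groups had 3 libraries. MET1 maintains CG methylation, DDM1 is a chromatin remodeller needed for DNA methylation, SUVH1 binds methylated DNA and promotes expression, HDP1 and HDP2 are transposon-derived proteins that act against silencing, and KANADI1 (KAN1) is a transcription factor of organ polarity. What sMf, rMf, M317, M318, ARE and Ctr stand for is not given in the labels, which also do not say whether a host carried any construct of its own. The header of the second region reads promoter or M2, with the same start and end for both. In the M317 and M318 hosts and lines the count may therefore be of M2 and not of the promoter, and their values are given with that limit. The classes of hosts and lines differ, so cassette and class cannot be told apart in the comparisons with a host of class Wt, apart from Col_ARE//AGe.

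On the TAIR10 genome, AGp spans chr4:10380701-10382800 (2100 bp) and ends 56 bp before the annotated start of AG, whose gene body runs over chr4:10382856-10388539 on the plus strand. AGe spans chr4:10384147-10387145 (2999 bp). In 3 of the 4 RefSeq transcripts it starts at the first base of intron 2, which holds 94.5% of it, and runs over the 90 bp of exon 3 into intron 3. In the other transcript it is the whole of intron 2, with the same start and end. The regions had the same base composition (28.6% GC each) and near-equal densities of CHG cytosines, at 24.8 in AGp and 24.3 in AGe per kb, and of CHH cytosines, at 248 and 241 per kb. CG cytosines, the context that MET1 maintains, were sparser in AGp (13.3 per kb) than in AGe (20.0 per kb). Of the 21-base words of each region, 99.7% in AGp and 99.6% in AGe occurred once in the genome.

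**Figure D1:**
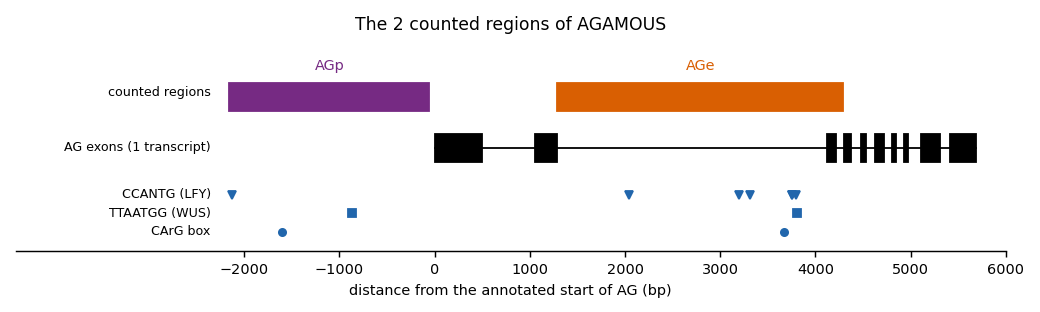
Map of AG by distance from its annotated start (bp), with the exons of 1 transcript in black, the 2 counted regions as coloured bars and matches to 3 motifs below. AGp ends 56 bp before the start, and most motif matches of AGe lie near its far end.

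The last 300 bases of AGp (chr4:10382501-10382800, plus strand) are shown because they lie nearest to the start of AG. A 300-base window of AGe (chr4:10386490-10386789, plus strand) is shown because no window of that region outside exons holds more LFY and WUS matches. Windows that overlap it hold as many, and the middle of their run was taken. Both are from the RefSeq copy of TAIR10.
AGp: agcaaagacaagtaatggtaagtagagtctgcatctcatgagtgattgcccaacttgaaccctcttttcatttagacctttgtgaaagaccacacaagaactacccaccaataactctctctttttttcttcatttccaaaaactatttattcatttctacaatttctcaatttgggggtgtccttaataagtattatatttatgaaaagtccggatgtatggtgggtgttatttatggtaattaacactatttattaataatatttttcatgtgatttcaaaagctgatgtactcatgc
AGe: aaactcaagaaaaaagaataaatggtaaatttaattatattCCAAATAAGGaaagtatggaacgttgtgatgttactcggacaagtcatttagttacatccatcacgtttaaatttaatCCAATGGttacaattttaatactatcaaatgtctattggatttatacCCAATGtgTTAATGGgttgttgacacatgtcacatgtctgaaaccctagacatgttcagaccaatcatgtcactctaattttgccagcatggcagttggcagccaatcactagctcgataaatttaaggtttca
Capitals mark matches to CCANTG, a core that LFY binds, to TTAATGG, which WUS binds, and to the CArG box of MADS-domain proteins, searched on both strands. The AGe window holds 3 matches to CCANTG, of which 2 overlap on opposite strands, 1 to TTAATGG and 1 CArG box. The AGp stretch holds none of these matches. In the whole regions CCANTG occurred once in AGp and 6 times in AGe, and TTAATGG and the CArG box occurred once in each. Such matches are common: 91.1% of genome windows as long as AGp and 96.2% of those as long as AGe held CCANTG, and 32.8% of windows as long as AGe held 6 or more.

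Reads per kb of a region and per 1000000 mapped reads are called its density. The balance is the density of AGp divided by that of AGe in the same library, so that the library size cancels out and a balance of 1 means as many reads per kb over both. Mapped reads ranged over 4.07 to 21.5 per library in set A, 2.21 to 18.2 in B and 22.6 to 24.0 in C, in units of 1000000 reads. The 3 M318_AGe rMf libraries stood apart, with 40.7%, 44.9% and 47.3% of their reads mapped against 89.6% to 98.4% in the 93 others, and their densities per mapped read rest on that smaller share. The promoter was the denser region in 13 of 96 libraries. The regions differ in sequence, so a sequence preference of the library kit would enter a balance that is set against 1. It would cancel only between groups of 1 set, and its part was not tested. AGp had fewer than 10 reads in 17 libraries and 0 in 1, whereas AGe had at least 10 in all. Intervals on a single library are exact 95% binomial intervals on its reads and cover counting error only.

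**Figure D2:**
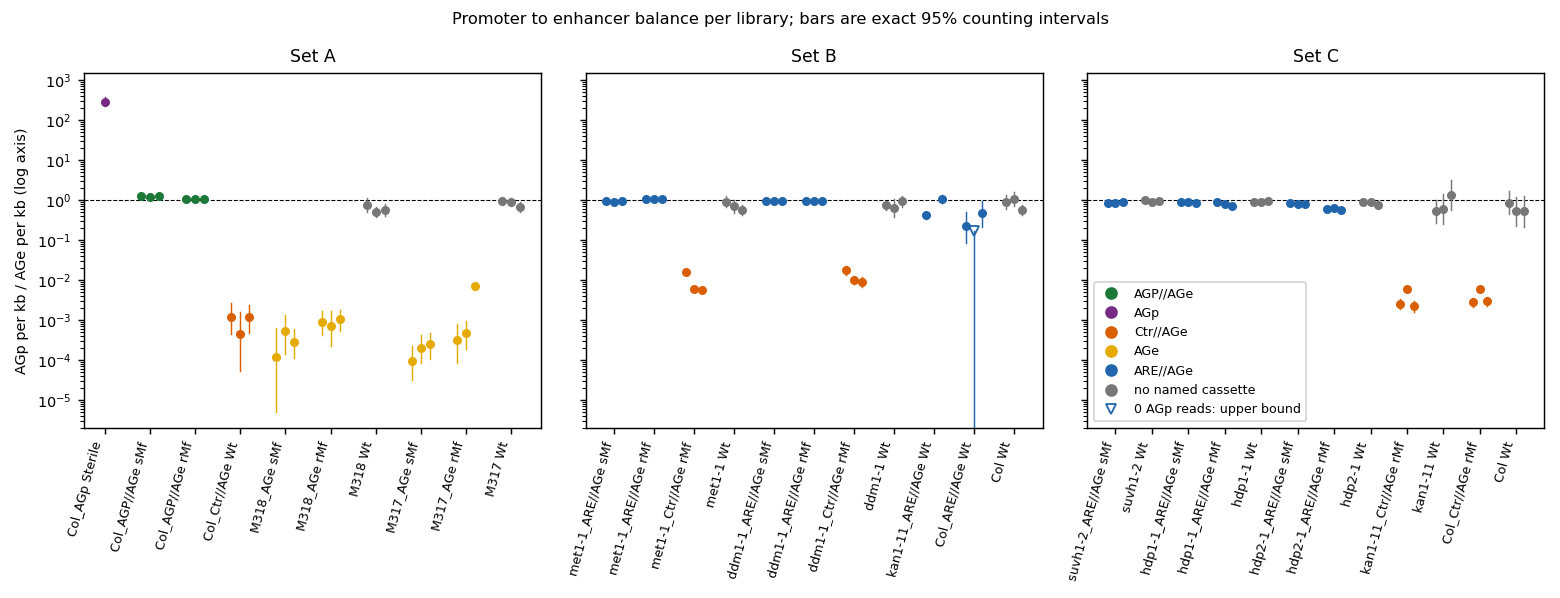
Balance (AGp per kb over AGe per kb, log axis) of each library by group in the 3 sets, each line left of its host, with exact 95% counting intervals as bars. Libraries with AGP//AGe sit at 1.06 to 1.24, those with Ctr//AGe or AGe at or below 0.0173, the Col_AGp library at 288 and most hosts below the dashed line at 1.

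Within each set the libraries with Ctr//AGe or AGe had the lowest balance, apart from the Col_ARE//AGe library with 0 AGp reads in set B. In set A the balance was 1.06 to 1.24 in the 6 AGP//AGe libraries and 288 in the Col_AGp library, all above the 6 host libraries at 0.494 to 0.95. The 12 AGe libraries of M317 and M318, at 9.58e-05 to 0.00692, and the 3 Col_Ctr//AGe libraries, at 0.00044 to 0.0012, lay below the hosts and overlapped each other. In set B it was 0.890 to 1.06 in the 12 ARE//AGe libraries of ddm1-1 and met1-1, 0 to 1.06 in the 5 of kan1-11 and Col, and 0.0055 to 0.0173 in the 6 Ctr//AGe libraries, against 0.569 to 1.05 in the 9 host libraries. In set C it was 0.567 to 0.888 in the 15 ARE//AGe libraries and 0.00224 to 0.00602 in the 6 Ctr//AGe libraries, against 0.536 to 1.32 in the 15 host libraries. The ARE//AGe libraries thus overlapped the hosts of their set in balance. Among 50 comparisons of balance between groups, edgeR's quasi-likelihood test, with libraries as blocks, called 7 higher (14.0%) and 10 lower (20.0%) at an adjusted p under 0.05. Without Col_AGp, a group of 1 library, 6 of 49 were called higher and 10 lower, and without the M318_AGe rMf libraries 7 of 47 higher and 9 lower. All groups of a set shared 1 estimate of spread, which includes the groups with few reads. With the compared groups alone in the fit, 12 were called higher (24.0%) and 12 lower (24.0%). Beside each result that differs between these fits both are given.

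**Figure D3:**
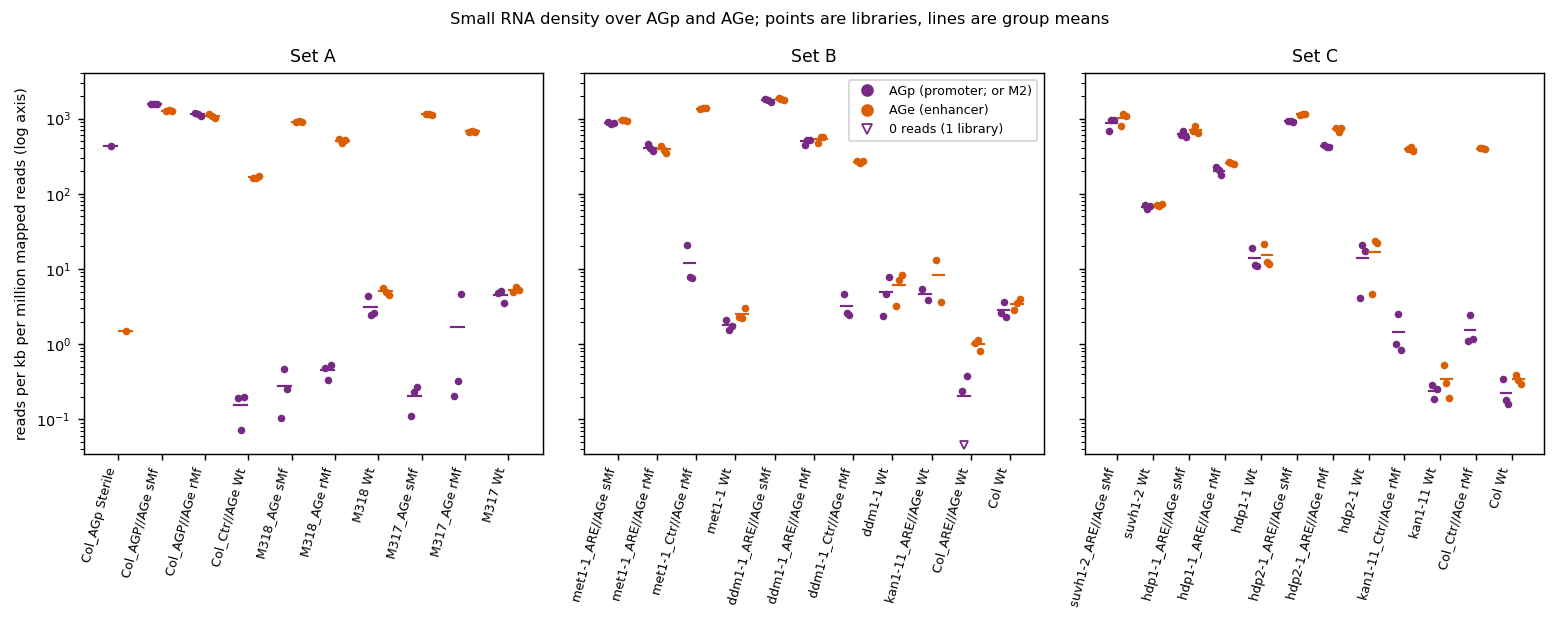
Density of AGp and AGe (reads per kb per 1000000 mapped reads, log axis) in each library by group and set, with group means as lines and an open triangle for the library with 0 reads. The 2 regions lie close together in hosts and in AGP//AGe and most ARE//AGe lines, and far apart with Ctr//AGe, AGe and AGp.

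Host flowers had few reads over either region outside suvh1-2, hdp1-1 and hdp2-1, with slightly fewer per kb over the promoter. In set A, M318 flowers had AGp densities of 4.31, 2.41 and 2.6 and AGe densities of 5.66, 4.88 and 4.57 reads per kb per 1000000 mapped reads. M317 flowers had 4.74, 5.15 and 3.48 over AGp and 4.99, 5.71 and 5.23 over AGe. The enhancer was the denser region in all 6 of these libraries, and the balance averaged 0.839 ± 0.152 in M317 and 0.608 ± 0.138 in M318 (SD, n = 3 each), with overlapping libraries. In set B the balance averaged 0.772 ± 0.142 in ddm1-1 and 0.728 ± 0.172 in met1-1, against 0.839 ± 0.247 in Col. In set C it averaged 0.947 ± 0.0523 in suvh1-2, 0.921 ± 0.0373 in hdp1-1, 0.848 ± 0.0762 in hdp2-1 and 0.824 ± 0.430 in kan1-11, against 0.649 ± 0.189 in Col. Of the 10 host groups, edgeR and DESeq2 called 0 different from a balance of 1, and 0 had an unadjusted p under 0.05.

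The mutant hosts with the highest densities had them over both regions. In suvh1-2, AGp densities were 70.3, 62.0 and 68.3 and AGe densities 70.4, 69.4 and 71.9, against AGp densities of 0.340, 0.181 and 0.161 and AGe densities of 0.392, 0.338 and 0.297 in Col. In ratio of means that was 294-fold over AGp and 206-fold over AGe. The balance of suvh1-2 was 0.998, 0.893 and 0.949, above all of the Col libraries at 0.867, 0.536 and 0.544, with a fitted ratio of 1.43 (95% interval 0.812 to 2.53). The edgeR adjusted p was 0.432 over the set and 0.198 with these groups alone. The ratio to Col was 1.39 (0.787 to 2.47) in hdp1-1, 1.28 (0.721 to 2.27) in hdp2-1, 1.08 (0.518 to 2.27) in kan1-11, 0.968 (0.488 to 1.92) in ddm1-1 and 0.895 (0.455 to 1.76) in met1-1. Of the 6 comparisons of a mutant host with Col, edgeR called 0 in either fit and DESeq2 called 0, and 0 had an unadjusted p under 0.05. The intervals of set C rest on 34 AGp reads in Col, and a change of balance inside them was not detectable at this depth.

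With AGP//AGe in Col, a label that names both regions if AGP is read as AGp, the promoter was the denser region in every library. In sMf flowers AGp densities were 1549, 1570.5 and 1552 and AGe densities 1246, 1288 and 1262. In rMf flowers AGp densities were 1196, 1148 and 1094 and AGe densities 1132, 1067 and 1031. The balance was 1.24, 1.22 and 1.23 in sMf flowers and 1.06, 1.08 and 1.06 in rMf flowers, above 1 in 6 of 6 libraries, and the exact intervals of all 6 lay above 1. Over the set edgeR did not call either group different from 1 (adjusted p = 0.667 and 0.848), whereas a quasi-binomial model did (adjusted p = 2.17e-12 and 0.00073). Set A holds no untransformed Col, so these flowers could be set against Col_Ctr//AGe alone.

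With AGp in Col, a cassette named for the promoter alone, reads lay almost wholly over the promoter, and with Ctr//AGe over the enhancer. The 1 Col_AGp library had 12706 AGp reads and 63 AGe reads, or densities of 430.5 and 1.49, and a balance of 288 (95% counting interval 225 to 375). Col_Ctr//AGe libraries had AGp densities of 0.192, 0.0714 and 0.2 and AGe densities of 159.6, 162 and 172. Their balance was 0.0012, 0.00044 and 0.00116 and rests on 15 AGp reads. Against Col_Ctr//AGe, edgeR called the balance higher in Col_AGP//AGe sMf flowers (log2 10.38 ± 0.76 SE, adjusted p = 1.08e-09), in Col_AGP//AGe rMf flowers (log2 10.17 ± 0.76) and in Col_AGp (log2 18.25). The spread behind the last call is wholly that of other groups, since Col_AGp has 1 library, and its difference has no replicate check.

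With AGe in M318 and M317 the reads lay almost wholly over the enhancer. M318_AGe sMf flowers had 1, 4 and 7 AGp reads beside 12361, 11147 and 35305 AGe reads, and M318_AGe rMf flowers 10, 5 and 12 beside 16033, 10209 and 16583. M317_AGe sMf flowers had 5, 7 and 8 AGp reads beside 74557, 49642 and 47200 AGe reads. M317_AGe rMf flowers had 4, 7 and 81 AGp reads beside 18604, 21457 and 16710. The third library of that last group stood apart, with a balance of 0.00692 against 0.000307 and 0.000466 in the others, while its AGe density of 666 was like theirs at 668 and 688. All 12 libraries lay below every host library, and edgeR called the balance lower than in the host in all 4 groups. The log2 difference was -9.41 ± 0.73 SE in M318_AGe rMf, -11 ± 0.81 in M318_AGe sMf, -12.25 ± 0.74 in M317_AGe sMf and -9.49 ± 0.70 in M317_AGe rMf flowers, with the largest adjusted p at 3.05e-09. Without the third library of M317_AGe rMf its difference was -11.09, without the first -8.52 and without the second -8.65, and the call held in each case.

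In these lines the second region also had fewer reads than in the host, not merely a smaller share. The mean AGp density was 0.447 ± 0.104 in M318_AGe rMf and 0.276 ± 0.183 in M318_AGe sMf flowers, against 3.10 ± 1.04 in M318 (SD, n = 3 each). It was 0.204 ± 0.0835 in M317_AGe sMf and 1.71 ± 2.51 in M317_AGe rMf flowers, against 4.46 ± 0.868 in M317. The AGp libraries of the lines lay below those of the host, except the third library of M317_AGe rMf at 4.61, which lay inside the M317 range of 3.48 to 5.15. Whether these reads come from M2 or from the promoter cannot be told apart in the file.

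Flowers with Ctr//AGe also had reads over the enhancer and few over the promoter, in each of the 4 hosts with which they could be compared. In met1-1_Ctr//AGe, AGp densities were 21, 7.91 and 7.5 and AGe densities 1319.8, 1372 and 1365, so that the balance was 0.0159, 0.00577 and 0.0055. In ddm1-1_Ctr//AGe, AGp densities were 4.69, 2.61 and 2.44 and AGe densities 271, 257 and 272, with a balance of 0.0173, 0.0101 and 0.00896. In each of these groups the first library had about the same AGe density as the others and the highest AGp density. In set C, kan1-11_Ctr//AGe had AGp densities of 1.01, 2.5 and 0.840 and AGe densities of 398, 415 and 374, and Col_Ctr//AGe AGp densities of 1.11, 2.41 and 1.16 and AGe densities of 401, 399 and 394. Here the second library of both groups was the one with the highest AGp density. The edgeR log2 difference of balance from the host was -6.49 ± 0.44 SE in met1-1, -6.05 ± 0.46 in ddm1-1, -7.70 ± 0.41 in kan1-11 and -7.44 ± 0.41 in Col, all called lower with adjusted p of at most 1.83e-10.

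The fall in balance with Ctr//AGe came with more, not fewer, promoter reads per 1000000 in 3 of these 4 hosts. Mean AGp density was 12.1 ± 7.65 in met1-1_Ctr//AGe against 1.80 ± 0.278 in met1-1, 1.45 ± 0.911 in kan1-11_Ctr//AGe against 0.240 ± 0.0517 in kan1-11, and 1.56 ± 0.733 in Col_Ctr//AGe against 0.227 ± 0.0976 in Col (SD, n = 3 each). The libraries of line and host did not overlap in these 3 hosts. In ddm1-1 it was 3.25 ± 1.26 with Ctr//AGe against 4.89 ± 2.68 in the host, with overlapping libraries. Per 1000000 reads aligned once, the ddm1-1 means were 51.0 ± 19.5 with Ctr//AGe and 18.7 ± 10.2 in the host, so the order there depends on the denominator. The host level amounts to 14.8% of the AGp density of the met1-1 line, 16.6% of that of the kan1-11 line and 14.6% of that of the Col line.

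With ARE//AGe in the hosts hdp2-1, hdp1-1, suvh1-2, ddm1-1 and met1-1, reads lay over both the promoter and the enhancer. In met1-1_ARE//AGe sMf flowers AGp densities were 899, 839 and 882 and AGe densities 952, 942 and 937. In met1-1_ARE//AGe rMf flowers they were 456, 405 and 368 over AGp and 434, 381 and 348 over AGe. The balance was 0.944, 0.890 and 0.941 in sMf flowers and 1.05, 1.06 and 1.06 in rMf flowers. The rMf flowers were the only ARE//AGe group of set B with more reads per kb over the promoter in each library. In ddm1-1_ARE//AGe the balance was 0.972, 0.962 and 0.952 in sMf flowers and 0.959, 0.921 and 0.921 in rMf flowers, and AGp densities reached 1794 in sMf flowers.

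In set C the balance with ARE//AGe stayed below 1 in all 15 libraries. It was 0.846, 0.847 and 0.888 in suvh1-2_ARE//AGe sMf flowers, 0.880, 0.869 and 0.868 in hdp1-1_ARE//AGe sMf flowers and 0.871, 0.797 and 0.714 in hdp1-1_ARE//AGe rMf flowers. In hdp2-1_ARE//AGe it was 0.847, 0.802 and 0.779 in sMf flowers and 0.586, 0.631 and 0.567 in rMf flowers. The rMf flowers of hdp2-1 thus had the lowest promoter share of the ARE//AGe groups of set C, with AGp densities of 442, 416 and 423 and AGe densities of 754, 659 and 745. It was the only group of these 9 that edgeR called different from 1 over the set (log2 -0.75 ± 0.15 SE, adjusted p = 0.000175), and DESeq2 called 1 as well. The quasi-binomial model called 7 of the 9, all with the denser enhancer, among them hdp2-1 sMf (adjusted p = 2.17e-12), suvh1-2 sMf (adjusted p = 2.8e-09) and hdp1-1 sMf flowers (adjusted p = 2.95e-07).

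Compared with their hosts, the ARE//AGe lines of these 5 mutants had 0.704 to 1.48 times the balance, while both densities were between 13-fold and 486-fold those of the host per mapped read and between 14.7-fold and 369-fold per read aligned once. The 486-fold is that of AGp in met1-1 sMf flowers, which was 219-fold per read aligned once. The fitted ratio of balance over the host was 1.29 (95% interval 0.691 to 2.43) in met1-1 sMf, 1.48 (0.790 to 2.77) in met1-1 rMf, 1.24 (0.658 to 2.35) in ddm1-1 sMf and 1.21 (0.638 to 2.29) in ddm1-1 rMf flowers. In set C it was 0.909 (0.666 to 1.24) in suvh1-2 sMf, 0.949 (0.691 to 1.30) in hdp1-1 sMf, 0.861 (0.626 to 1.18) in hdp1-1 rMf, 0.959 (0.696 to 1.32) in hdp2-1 sMf and 0.704 (0.512 to 0.970) in hdp2-1 rMf flowers. Libraries of line and host did not overlap in met1-1 rMf, ddm1-1 sMf, suvh1-2 sMf, hdp1-1 sMf, hdp1-1 rMf and hdp2-1 rMf flowers. The 4 ratios of set B lay above 1 and the 5 of set C below it. Of these 9, edgeR over the set called 0 and DESeq2 called 0, and 1 had an unadjusted p under 0.05, in hdp2-1 rMf flowers (edgeR adjusted p = 0.0874). Fitted with its own groups alone in edgeR, met1-1 rMf was higher than its host (adjusted p = 0.0353) and hdp2-1 rMf lower (adjusted p = 0.0128). Host reads make up little of these values: the host AGp density was 0.206% to 7.70% of that of the line, and after the host densities were subtracted the balance of mean densities was 0.926, 1.06, 0.963 and 0.934 in the 4 groups of set B and 0.855, 0.872, 0.789, 0.808 and 0.588 in those of set C.

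**Figure D4:**
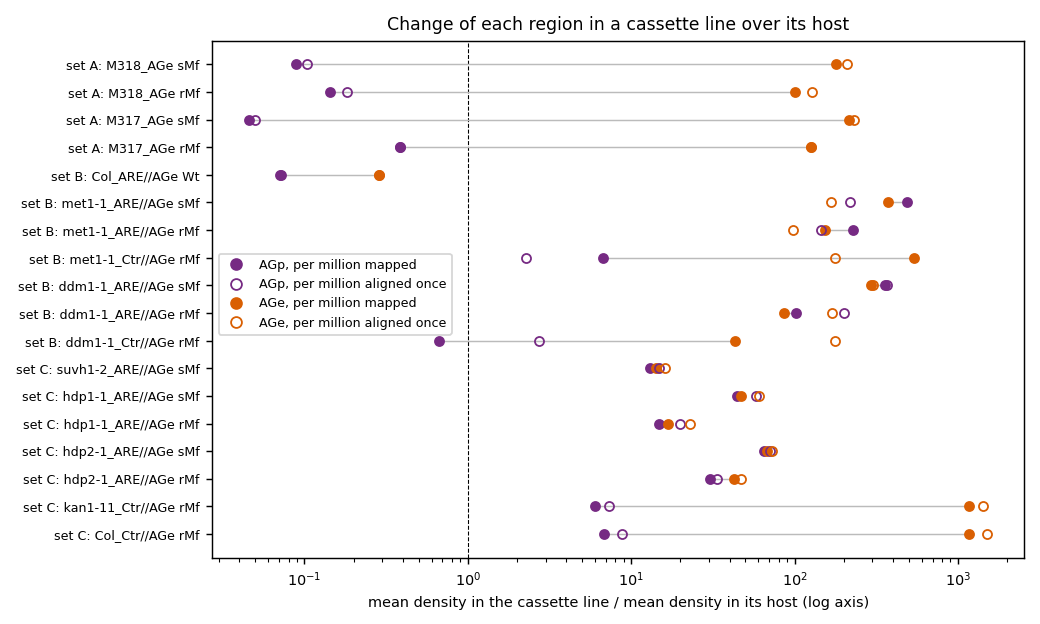
Ratio of mean density in each cassette line to its host (log axis) for AGp and AGe, per 1000000 mapped reads (filled) and per 1000000 reads aligned once (open). AGp and AGe move together with ARE//AGe in 5 mutant hosts and lie far apart with AGe and Ctr//AGe.

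Within a mutant host of set B, ARE//AGe and Ctr//AGe differed in the promoter reads far more than in the enhancer reads. The balance with ARE//AGe over that with Ctr//AGe was 116-fold in met1-1 sMf (95% interval 64.3 to 210.4), 133-fold in met1-1 rMf (73.5 to 240.5), 82.4-fold in ddm1-1 sMf (44.6 to 152) and 80.0-fold in ddm1-1 rMf flowers (43.3 to 148). All 4 were called higher by edgeR, with adjusted p of at most 3.92e-11. The rMf pairs share the flower class. Mean AGp density in rMf flowers was 409 ± 44.6 in met1-1_ARE//AGe against 12.1 ± 7.65 in met1-1_Ctr//AGe, and 498 ± 42.8 in ddm1-1_ARE//AGe against 3.25 ± 1.26 in ddm1-1_Ctr//AGe (SD, n = 3 each). In ratio of means AGp was 33.8-fold in met1-1 and 153-fold in ddm1-1 per mapped read, and 64.2-fold in met1-1 and 74-fold in ddm1-1 per read aligned once. AGe density went the other way in met1-1, at 387 ± 43.6 against 1352 ± 28.4, and in ddm1-1 it stood at 534 ± 57.6 against 267 ± 8.53. Per 1000000 reads aligned once, mean AGe density was 2872 with ARE//AGe against 5202 with Ctr//AGe in met1-1, and in ddm1-1 4047 with ARE//AGe against 4197 with Ctr//AGe, with overlapping libraries, so the order in ddm1-1 depends on the denominator. Reads aligned once made up 13.3% of mapped reads in ddm1-1_ARE//AGe rMf flowers against 6.36% in ddm1-1_Ctr//AGe.

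In Col, ARE//AGe flowers were of class Wt and had few reads over either region. AGp densities were 0.236, 0 and 0.380 and AGe densities 1.04, 1.12 and 0.822 in Col_ARE//AGe, against AGp densities of 2.58, 3.68 and 2.28 and AGe densities of 2.88, 3.50 and 4.01 in Col of the same set. The balance was 0.227, 0 and 0.462, below every Col library at 0.895, 1.05 and 0.569. In the library with 0 AGp reads the exact interval of the balance reached up to 0.169, and 3 AGp reads would be a density of 0.146. The edgeR log2 difference was -1.85 ± 0.62 SE (adjusted p = 0.0169), which rests on 18 AGp reads. The call was lost with the 2 groups alone in the edgeR fit (adjusted p = 0.211), without the first or second library of Col_ARE//AGe (adjusted p = 0.0529 and 0.0923) and without the second of Col (adjusted p = 0.0562).

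The 2 kan1-11_ARE//AGe libraries, titled A and B, differed from each other. One had an AGp density of 5.49 and an AGe density of 13.3, and the other 3.82 and 3.60. Their balance was 0.414 and 1.06, and the exact intervals of 0.329 to 0.516 and 0.844 to 1.34 did not overlap. The AGe densities differed 3.69-fold and the AGp densities 1.44-fold, so most of the difference lay over the enhancer. Set B has no kan1-11 host. Against Col_ARE//AGe, also of class Wt, the balance was 3-fold higher (95% interval 1.19 to 7.56), with overlapping libraries. This did not pass in edgeR over the set (adjusted p = 0.0579) and passed in DESeq2 (adjusted p = 0.0273). It did not pass with the 2 groups alone in the edgeR fit (adjusted p = 0.446) or in the quasi-binomial model (adjusted p = 0.501).

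Between sMf and rMf flowers of one line the balance shifted by small amounts and in both directions. In Col_AGP//AGe the promoter share was higher in sMf flowers: the 3 sMf libraries at 1.22 to 1.24 lay above the 3 rMf libraries at 1.06 to 1.08, a fitted ratio of 1.16. In hdp2-1_ARE//AGe it was 0.779 to 0.847 in sMf and 0.567 to 0.631 in rMf flowers, a ratio of 1.36. In ddm1-1_ARE//AGe it was 0.952 to 0.972 in sMf and 0.921 to 0.959 in rMf flowers, and in hdp1-1_ARE//AGe 0.868 to 0.880 in sMf and 0.714 to 0.871 in rMf flowers, with overlap in both. In met1-1_ARE//AGe the order was the reverse, with 0.890 to 0.944 in sMf and 1.05 to 1.06 in rMf flowers, a ratio of 0.875. In these 5 lines AGp and AGe densities both stood higher in sMf flowers, in means by 1.17-fold to 3.50-fold per mapped read and 1.17-fold to 2.90-fold per read aligned once. The 3.50-fold is that of AGp in ddm1-1_ARE//AGe, which was 1.83-fold per read aligned once, where 25.2% of mapped reads in sMf flowers against 13.3% in rMf flowers aligned once.

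**Figure D5:**
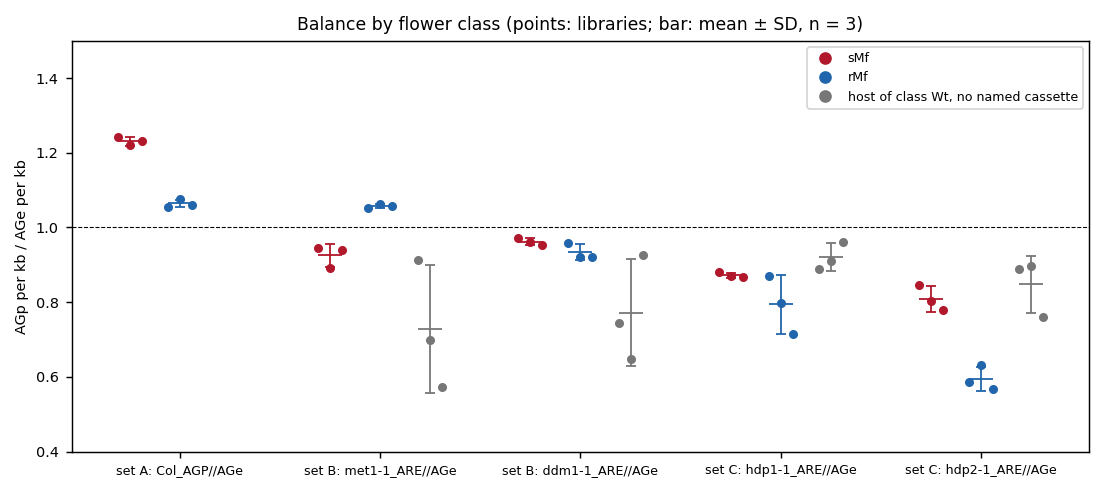
Balance (AGp per kb over AGe per kb) in sMf flowers, rMf flowers and the host of class Wt for the 5 lines with both classes and reads over both regions, as libraries (points) with mean ± SD (n = 3), with no host for Col_AGP//AGe in set A. The sMf libraries lie above the rMf libraries in Col_AGP//AGe and hdp2-1_ARE//AGe and below them in met1-1_ARE//AGe.

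Of these 5 shifts edgeR over the set and DESeq2 called 0, and 0 had an unadjusted p under 0.05. The edgeR adjusted p over the set was 0.129 in hdp2-1_ARE//AGe, 0.778 in hdp1-1_ARE//AGe, 0.923 in ddm1-1_ARE//AGe, 0.821 in met1-1_ARE//AGe and 0.855 in Col_AGP//AGe. With the 2 groups alone in the edgeR fit 4 of the 5 passed, with adjusted p of 0.000524 in Col_AGP//AGe, 0.0214 in ddm1-1_ARE//AGe, 0.00655 in met1-1_ARE//AGe and 0.00443 in hdp2-1_ARE//AGe, and hdp1-1_ARE//AGe did not (adjusted p = 0.216). The ddm1-1_ARE//AGe libraries overlapped, and its log2 shift was 0.0618 in that fit and 0.0429 over the set. The quasi-binomial model called hdp1-1_ARE//AGe (adjusted p = 0.0419) and not ddm1-1_ARE//AGe (adjusted p = 0.326). Col_AGP//AGe, met1-1_ARE//AGe and hdp2-1_ARE//AGe passed in both. An exact permutation test of 3 against 3 libraries cannot go below p = 0.1. The sMf minus rMf shift of ddm1-1 minus that of met1-1 was 0.24 on the log2 scale, with an adjusted p over 9 such differences of 0.962 when edgeR was fitted to the whole set and 0.000515 when fitted to those 4 groups. Of the 9 differences between hosts in a shift of balance, edgeR over the set and DESeq2 called 0, and 0 had an unadjusted p under 0.05.

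In the lines with AGe alone AGp counts, which may be of M2 here, were very low in both classes. In M317_AGe the balance was 9.58e-05 to 0.000242 in sMf and 0.000307 to 0.00692 in rMf flowers, and edgeR called it lower in sMf flowers (log2 -2.76 ± 0.76 SE, adjusted p = 0.0127). Without the third rMf library the difference was -1.23 (edgeR adjusted p = 0.270), without the first rMf library -3.73 and without the second -3.60, and without the first sMf library the edgeR adjusted p was 0.0549. With the 2 groups alone the edgeR adjusted p was 0.241. In M318_AGe it was 0.000116 to 0.000512 in sMf and 0.000699 to 0.00103 in rMf flowers (log2 -1.60 ± 0.85 SE), with an edgeR adjusted p of 0.172 over the set and 0.0334 alone. Mean AGe density stood 1.69-fold higher in sMf flowers of M317_AGe and 1.78-fold higher in those of M318_AGe per mapped read, but 3.90-fold higher in M318_AGe per total read, where the rMf libraries had the low share of mapped reads. AGp density in sMf over rMf flowers of M318_AGe was 0.617-fold per mapped read and 1.34-fold per total read. Summed over libraries, the AGp reads were 20 in sMf against 92 in rMf flowers of M317_AGe and 12 against 27 of M318_AGe. Of the 92, the third rMf library gave 81. These sums are raw reads and do not allow for library size.

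Groups with one cassette and one class in different hosts of a set did not overlap in balance in 4 of 12 comparisons. Of these 12 edgeR called 0 over the set, where 1 had an unadjusted p under 0.05, and 2 with the own groups alone, and DESeq2 called 1. The rMf flowers of ddm1-1_ARE//AGe had a lower balance than those of met1-1_ARE//AGe, by a ratio of 0.883 (95% interval 0.491 to 1.59 over the set, edgeR adjusted p with own groups 0.000265). The rMf flowers of hdp1-1_ARE//AGe had a higher one than those of hdp2-1_ARE//AGe, by 1.33 (0.976 to 1.82 over the set, edgeR adjusted p with own groups 0.0268). The libraries of both pairs did not overlap, nor did those of sMf flowers of ddm1-1_ARE//AGe and met1-1_ARE//AGe (ratio 1.04) or of hdp1-1_ARE//AGe and hdp2-1_ARE//AGe (ratio 1.08). The ratio was 0.586 (0.166 to 2.06) in sMf and 1.31 (0.442 to 3.90) in rMf flowers of M317_AGe over M318_AGe. Between kan1-11_Ctr//AGe and Col_Ctr//AGe, both rMf, the ratio was 0.908 (0.620 to 1.33), and it moved to 0.613 (edgeR adjusted p = 0.0222) without the second library of kan1-11_Ctr//AGe. Between ddm1-1_Ctr//AGe and met1-1_Ctr//AGe it was 1.47 (0.790 to 2.72), and 2.08 (edgeR adjusted p = 0.0216) without the first library of met1-1_Ctr//AGe.

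The order of the groups by balance had many ties within the spread of libraries. In set A it ran, high to low, Col_AGp, Col_AGP//AGe sMf and rMf, M317, M318, and then the AGe lines and Col_Ctr//AGe, and 4 of 9 neighbouring pairs overlapped. In set B met1-1_ARE//AGe rMf came first at 1.06 ± 0.00537, followed by the other met1-1 and ddm1-1 lines with ARE//AGe, the hosts and kan1-11_ARE//AGe, then Col_ARE//AGe at 0.230 ± 0.231 and the Ctr//AGe lines, and 8 of 10 neighbouring pairs overlapped. In set C the suvh1-2 and hdp1-1 hosts came first, hdp2-1_ARE//AGe rMf was lowest of the groups without Ctr//AGe, and 9 of 11 neighbouring pairs overlapped.

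The balance does not depend on the denominator, but the densities do, above all in set B. Reads aligned once made up 6.18% to 51.8% of mapped reads over all libraries, 26.1% ± 0.432 in ddm1-1 and 8.61% ± 0.766 in met1-1 against 44.4% ± 0.879 in Col of set B (SD, n = 3 each). Per 1000000 mapped reads the mean AGe density was 6.20 in ddm1-1 and 2.52 in met1-1 against 3.46 in Col, and per 1000000 reads aligned once 23.8 in ddm1-1 and 29.4 in met1-1 against 7.82 in Col. The mean AGp density was 4.89 in ddm1-1 and 1.80 in met1-1 against 2.85 in Col per 1000000 mapped, and 18.7 in ddm1-1 and 20.8 in met1-1 against 6.44 in Col per 1000000 aligned once. The order of met1-1 and Col thus turned round with the denominator for both regions. With Ctr//AGe, mean AGe density was 267 in ddm1-1 and 1352 in met1-1 per 1000000 mapped, and 4197 in ddm1-1 and 5202 in met1-1 per 1000000 aligned once. In set C and set A the share aligned once lay closer between groups, and the AGe ratios of line over host moved by less than in the met1-1 lines and the rMf lines of ddm1-1.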

How the data were processed

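The members and the comparisons were chosen with earlier results of these data known. Per the submitters' processing notes, the authors aligned reads to TAIR10 with Bowtie and counted them with HTSeq 0.13.5. How reads were trimmed, size-selected or placed when they had several hits is not given in the sources used here. The authors deposited read counts per library (total, aligned once, aligned more than once, mapped, AGe and AGp), the alignment rate in percent, and RPM of both regions, which equalled region reads per 1000000 mapped reads within 1e-06 in 96 libraries. The deposited counts were used. Reads of a region in a cassette and in the native gene fall on the same coordinates and cannot be told apart.

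Coordinates came from the file headers and were compared with the RefSeq copy of TAIR10. Densities are reads per kb and per 1000000 mapped reads, or per 1000000 aligned once. The balance was tested in R 4.3.3 by the two-sided quasi-likelihood F test of edgeR 4.0.16: each library gave its AGp and AGe counts, the library was a block, region length was an offset, and the region term was fitted per group over the libraries of a set with a common dispersion (0.148 in set A, 0.044 in B, 0.0139 in C), since AG is the only feature. P-values were adjusted by Benjamini-Hochberg over 50 comparisons between groups, 33 within groups and 9 differences between hosts, at a threshold of 0.05. Both regions and every group may be named. The fit was also run on simulated reads of known balance, with the same dispersion in all groups and sets. That dispersion lay below those of sets A and B, and every simulated promoter was at least as dense as the enhancer. The low balances of the lines with Ctr//AGe or AGe were therefore not covered. That simulation cannot test whether the groups of a set share a spread. Alternatives were the own groups only, DESeq2 1.42.0, a quasi-binomial model, libraries under 10 reads in a region left out, unique words as length, a replicate block, and each replicate left out. Leaving out each single library, the 3 M318_AGe rMf libraries, or the lone Col_AGp library was added after seeing the data. Per the labels' protocols each replicate is a pool of its own. All 94 pairs of replicates differed over 5 read classes (smallest chi-square 63.0), so none was a copy of another. With so many reads per library, such a difference cannot tell whether the pools were independent. Markers of other tissues were not analysed here, since no other gene was counted.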

Additional observations from a re-analysis of the deposited data

How the results depend on the processing

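Of the 50 comparisons 17 were called over the set, 17 with the replicate block, 17 with unique words as length, 18 by DESeq2, 24 with the own groups only, 25 by the quasi-binomial model and 12 of 42 without libraries under 10 reads. Between same-numbered libraries of compared groups, 23 of 48 pairs of groups had r above 0.1 and 23 below -0.1 (median 0.0309). Each r rests on 3 libraries per group, and single values reached 0.991 and -0.9998. The tally therefore cannot tell whether the numbers pair the samples. By quasi-binomial model, own groups and low-read filter, sMf flowers were called higher than rMf in 3, 3 and 1 lines (0 over the set) and lower in 2, 2 and 0 (1). Lines of one cassette in different hosts were called higher in 3, 1 and 1 comparisons, in 1 by DESeq2 (0 over the set), and lower in 1, 1 and 0. Lines were called higher than their host in 1 comparison with own groups (0). The low-read filter left 4 calls of cassette against cassette (7), and it and the quasi-binomial model each called 3 groups with the denser promoter (1), and the quasi-binomial model 16 with the denser enhancer (11). That 1 group is Col_AGp, and without it edgeR called 0. Differences between hosts were called higher in 1 with own groups, and in 1 higher and 1 lower by the quasi-binomial model (0). With 1 replicate number left out, lines against hosts gave 0 to 1 higher and 8 to 9 lower, sMf against rMf 0 to 1 higher and 0 to 2 lower, different hosts 0 to 2 higher and 0 to 1 lower, groups with the denser promoter 0 to 3 and with the denser enhancer 11 to 17, and differences between hosts 0 to 1 higher and 0 to 1 lower. For the calls gained and lost the cause was not tested.

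Some differences outside the threshold turned in sign (log2). Against Col, ddm1-1 was 0.0670 in the quasi-binomial model, and without libraries under 10 reads kan1-11 was -0.18, hdp2-1 -0.0394, and the Ctr//AGe change of kan1-11 minus that of Col 0.0449. With a replicate number left out the ranges were -0.11 to 0.0210 for hdp2-1_ARE//AGe sMf over its host, -0.28 to 0.0384 for met1-1, -0.47 to 0.23 for ddm1-1 and -0.31 to 0.72 for kan1-11 over Col, -1.06 to 1.28 for M317_AGe over M318_AGe rMf and -1.27 to 0.0883 within kan1-11_ARE//AGe. They were -0.87 to 0.26 for Ctr//AGe of kan1-11 minus Col, and for ARE//AGe sMf -0.35 to 0.27 for ddm1-1 minus met1-1, -0.12 to 0.0201 for suvh1-2 minus hdp1-1 and -0.0973 to 0.0743 for hdp1-1 minus hdp2-1. Without Col_AGp, and without the M318_AGe rMf libraries, 16 comparisons each were called. With single libraries left out, an alternative chosen after seeing the data like these, 127 of 132 refits of 28 called results kept the call and 0 turned. The 5 lost calls were Col_ARE//AGe against Col without any 1 of 3 libraries and M317_AGe sMf against rMf without any 1 of 2.

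The 17 libraries with fewer than 10 AGp reads limit the balance in M317_AGe, M318_AGe and Col_Ctr//AGe of set A, in Col_ARE//AGe of set B and in Col and kan1-11 of set C. A count of 3 AGp reads amounts to a density of 0.0663 to 0.351 in set A libraries, 0.0786 to 0.645 in set B and 0.0595 to 0.0633 in set C. Densities below that of a library's own 3 reads rest on fewer reads still.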

Other observations

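In 8 of 16 groups with at least 100 AGp reads in each library, the highest balance over the lowest was smaller than the same ratio of AGe density and of AGp density. In 6 it lay between them and in 2 above both. In hdp2-1 flowers, AGe densities were 4.66, 23.2 and 22.4 and AGp densities 4.14, 20.8 and 17.1, a 4.98-fold and a 5.02-fold range, while the balance of 0.888, 0.896 and 0.760 ranged 1.18-fold. In suvh1-2_ARE//AGe sMf flowers both densities ranged 1.42-fold and the balance 1.05-fold, and in hdp1-1 flowers AGe ranged 1.86-fold, AGp 1.72-fold and the balance 1.08-fold. Library size enters both densities and cancels in the balance, and its part in these ranges was not tested.

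In met1-1_Ctr//AGe AGe density ranged 1.04-fold, AGp density 2.79-fold and the balance 2.89-fold. In hdp1-1_ARE//AGe rMf flowers, where both regions had many reads, AGe ranged 1.08-fold, AGp 1.31-fold and the balance 1.22-fold. In hdp2-1_ARE//AGe sMf flowers AGe and AGp each ranged 1.05-fold and the balance 1.09-fold. In M317_AGe rMf flowers, with as few as 4 AGp reads in a library, AGe ranged 1.03-fold and AGp 22.5-fold.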
